A study of Saccharomyces cerevisiae with 7 samples.

Results

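The Δ*sir2* library was compared with 3 other libraries of the same survey, which makes 4 of the 7 libraries of the series. Those 3 came from the single deletions Δ*fpr3* and Δ*fpr4* and from the double deletion Δ*fpr3*Δ*fpr4*, called the double mutant below. Read numbers of the 3 *fpr* libraries are given in this order throughout. The wild-type library was not used, so no value given here depends on it. All 4 strains were isogenic to BY4741, a *MAT***a** haploid laboratory strain of *Saccharomyces cerevisiae*. The Δ*sir2*, Δ*fpr3* and Δ*fpr4* strains were single-gene deletions from yeast deletion collections, and the double mutant was made from the Δ*fpr3* deletion strain by exchanging *FPR4* for a nourseothricin resistance module. Each culture came from a single colony and was grown to midlog phase in rich YPD medium, and the rRNA-depleted fraction of its RNA was sequenced. Each genotype had 1 library, so no difference has a replicate check and every test on reads compares libraries, not conditions. The 3 *fpr* libraries are 3 genotypes and not replicates. A difference that sets Δ*sir2* apart from all 3 therefore cannot be told apart from a property of that 1 culture or library. A change shared by the *fpr* strains, which all lack Fpr3, Fpr4 or both, would give the same difference. Without the wild-type library, which side changed was not tested. According to the paper, genes raised in every *fpr* mutant were enriched for phosphate and ribosomal protein genes, and lowered ones for siderophore transport.

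Sir2 is an NAD-dependent histone deacetylase. With Sir3 and Sir4 it silences the copies of mating-type information stored at *HML* and *HMR* and genes near telomeres, and in the nucleolus it silences the rDNA repeats. In a *MAT***a** cell, loss of silencing at *HML* supplies the α1 and α2 proteins of the other mating type. The α2 protein with Mcm1 represses the **a**-specific genes, and α2 with **a**1 represses the haploid-specific genes, as in a diploid cell. Fpr3 and Fpr4 are nucleolar prolyl isomerases that act as histone chaperones and are paralogs of each other.

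A gene entered the comparison when its reads over the 4 libraries summed to more than 5, which held for 4851 of the 5110 genes in the files. For each gene, the level was taken as log2(RPKM + 1), where RPKM is the reads per kilobase of gene and per 1e+06 counted reads of the library. The difference is the level in Δ*sir2* minus the mean of the 3 *fpr* levels, and the gap is the distance from Δ*sir2* to the nearest of the 3 where it lay outside their range. Fold changes on this scale understate the change of low genes. A gene was called when a chi-square test of its reads (Δ*sir2* against the 3 *fpr* libraries summed, Benjamini-Hochberg adjustment at 0.05 over all 4851 genes) passed, the difference was at least 1.3-fold, and Δ*sir2* lay outside the range. The adjusted p-values below come from this test unless another is named.

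The Δ*sir2* library held 1242534 counted reads and the *fpr* libraries 1092722, 1150091 and 1009336. The median gene of the 5110 in the files had between 46 and 52 reads. Fewer calls were made where reads were few. Of the 1214 genes with 6 to 91 reads over the 4 libraries 37 were called higher and 70 lower, and of the 1212 genes with 562 or more 94 were called higher and 134 lower.

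The deleted genes matched their labels. *SIR2* (YDL042C, chrIV:376757-378445) had 0 reads in Δ*sir2* against 37, 73 and 58. *FPR3* had 268 reads against 0, 196 and 0, and *FPR4* had 181 against 256, 0 and 0. Most cell type markers matched the *MAT***a** background in the *fpr* libraries. The **a**-factor genes *MFA1* and *MFA2* and the α-factor receptor gene *STE2* had between 64 and 1046 reads there. *MF(ALPHA)1*, which encodes α-factor, had 0 reads in all 4 libraries and *MF(ALPHA)2* had at most 2. Of the other α markers, *STE3* had few reads, while *SAG1* had reads in every library, as given with the α-specific genes below.

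The sequences upstream of the **a**-specific genes were searched for the site of α2, as a description. Repression by α2 with Mcm1 is part of what makes a gene **a**-specific. A high share of matches therefore follows from how the list is defined and is no separate evidence on the levels of these genes. The letters CATGTAA, the core of the site that α2 binds beside Mcm1, were searched on both strands from 250 bases before to 50 bases after each start codon, in the R64 (sacCer3) sequence from RefSeq. Of the 7 **a**-specific genes, 6 held a match (85.7%), against 190 of 5041 genes in all (3.77%). The match stood at -241 to -132 bases from the start codon. The stretches around it are printed in the direction of the gene, with the match in capitals (TTACATG where it lies on the other strand). Their positions are chrXIV:352164-352223 for *MFA2*, chrIV:1384936-1385002 for *MFA1*, chrVI:82330-82387 for *STE2*, chrIX:322092-322137 for *BAR1*, and, on the minus strand, chrXI:46471-46537 for *STE6* and chrX:101875-101941 for *ASG7*.
MFA2: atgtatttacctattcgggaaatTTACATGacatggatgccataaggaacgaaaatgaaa
MFA1: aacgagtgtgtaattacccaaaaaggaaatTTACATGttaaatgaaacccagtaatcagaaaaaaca
STE2: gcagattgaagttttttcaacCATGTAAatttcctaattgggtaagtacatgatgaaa
STE6: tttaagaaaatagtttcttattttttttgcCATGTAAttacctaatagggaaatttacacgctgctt
BAR1: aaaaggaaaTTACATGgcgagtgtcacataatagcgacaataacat
ASG7: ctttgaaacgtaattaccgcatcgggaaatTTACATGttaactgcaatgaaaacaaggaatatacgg

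*AGA2*, the remaining **a**-specific gene, had no match to these 7 letters in its window. A match is a description of the sequence and not a measured binding site.

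Over all genes, Δ*sir2* lay within the range of the 3 *fpr* libraries for 2215 genes (45.7%), above it for 1224 (25.2%) and below it for 1412 (29.1%). The median difference was -0.01, and the median spread between the highest and lowest *fpr* level of a gene was 0.48. By the full rule, 267 genes (5.50%) were called higher in Δ*sir2* and 451 (9.30%) lower, *FPR3* among the first and *SIR2* among the second because they are deleted. Of the 718 called genes 62.8% were lower. The lower calls also reached further: 98 of them had a gap of at least 2-fold, against 14 of the higher calls, and 23 had no read in Δ*sir2*. When Δ*sir2* was set against each *fpr* library alone, 209 genes (4.31%) were called higher and 401 (8.27%) lower against Δ*fpr3*, 350 (7.22%) and 518 (10.7%) against Δ*fpr4*, and 274 (5.65%) and 476 (9.81%) against the double mutant. These 3 comparisons share the Δ*sir2* library. The chi-square test sees counting error only. edgeR's quasi-likelihood test, which takes the spread among the 3 *fpr* genotypes as the error of both sides, called 6 genes higher and 60 lower (470 at an unadjusted p under 0.05), and DESeq2 called 3 higher and 48 lower. Calls below that edgeR also made are named as such.

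**Figure D1:**
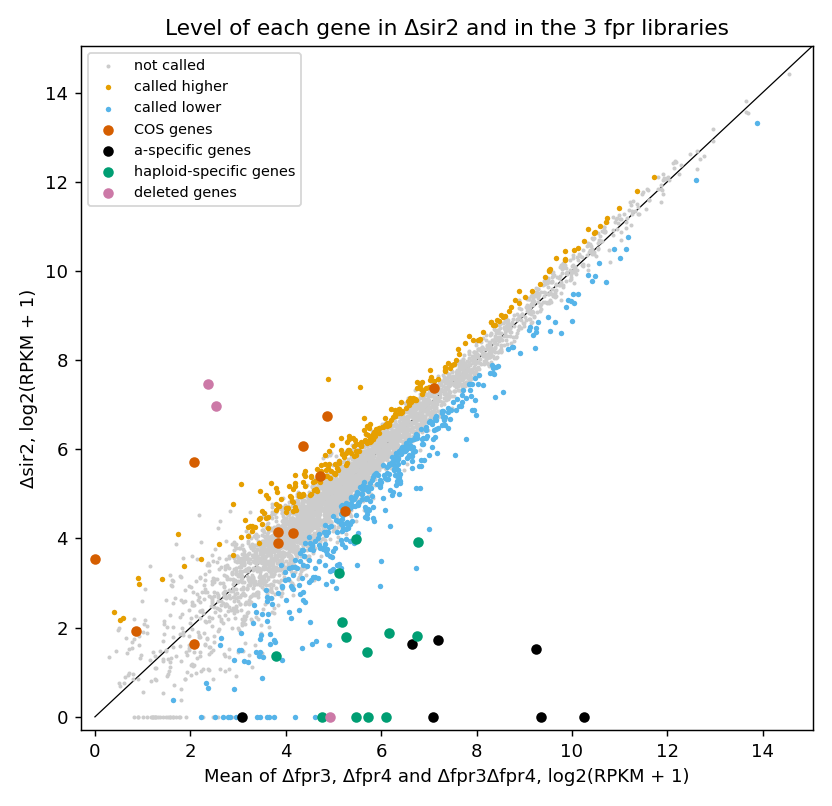
Each point is 1 of the 4851 genes tested, with the mean of the 3 *fpr* levels on the x axis and the Δ*sir2* level on the y axis, both as log2(RPKM + 1); the line marks equal levels and colours mark called genes and gene groups. The **a**-specific and haploid-specific genes lie far below the line, and *COS12* and *COS4* lie furthest above it among genes that were not deleted.

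All 7 **a**-specific genes and all 13 haploid-specific genes were below the range of the *fpr* libraries, where 29.1% of all genes lay, and 6 of the 7 and 13 of the 13 were called lower, against 9.30% of all genes. The median difference was -7.09 for the **a**-specific and -4.24 for the haploid-specific genes, or -5.02 and -3.48 when a count of 0 was set to 3 reads. edgeR called 6 and 12 of them, and DESeq2 6 and 11. The **a**-specific list took 0.00145% of the reads of the Δ*sir2* library against 0.147%, 0.162% and 0.204%, and the haploid-specific list 0.0110% against 0.108%, 0.122% and 0.135%. The **a**-specific genes had at most 10 reads in Δ*sir2* and the haploid-specific genes at most 38. In a bulk culture, fewer cells with the transcript and less transcript per cell cannot be told apart.

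Both genes of the pheromone itself were lower. *MFA2* (YNL145W, chrXIV:352414-352530), which encodes the **a**-factor precursor, had 0 reads in Δ*sir2* against 140, 147 and 178, and its level was at least 59.2-fold lower in Δ*sir2* than over the 3 *fpr* libraries (adjusted p = 2.22e-38; floor of 3 reads). *MFA1*, the other **a**-factor gene, had 0 reads against 64, 83 and 92 and was at least 30.4-fold lower (adjusted p = 7.51e-20). *STE2* (YFL026W, chrVI:82580-83875), which encodes the receptor for α-factor, had 3 reads in Δ*sir2* against 676, 873 and 1046, a log2 ratio of -8.37 (95% counting interval -10.65 to -6.82, adjusted p = 1.67e-212). Its level was 1.86 RPKM in Δ*sir2* and between 477 and 800 RPKM in the others, where the highest was the double mutant.

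Other **a**-specific genes process or answer the pheromone. *BAR1*, the secreted protease that degrades α-factor, had 5 reads in Δ*sir2* against 243, 348 and 256 (log2 ratio -6.02, 95% counting interval -7.64 to -4.79). *STE6*, the transporter that exports **a**-factor, had 10 against 453, 365 and 429 (log2 ratio -5.57, -6.64 to -4.69). *AGA2*, the adhesion subunit of **a**-agglutinin, had 0 against 27, 40 and 53, at least 15.3-fold lower. *ASG7*, which acts on pheromone signalling after mating, had 0 against 4, 4 and 8 and was the only **a**-specific gene not called (adjusted p = 0.0581), at a depth where no *fpr* library gave more than 8 reads.

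Haploid-specific genes carry the pheromone signal inside the cell. The G protein subunit genes were *STE18* (γ), with 0 reads in Δ*sir2* against 23, 24 and 26, *STE4* (β), with 4 against 150, 167 and 125, and *GPA1* (α), with 6 against 63, 39 and 63. The scaffold gene *STE5* had 6 reads against 137, 164 and 157, and the MAP kinase gene *FUS3* had 0 against 40, 63 and 49. *FAR1*, which arrests the cell cycle in response to pheromone, had 0 against 150, 148 and 123 and was at least 53.6-fold lower (adjusted p = 8.67e-35).

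Other haploid-specific genes kept more reads. *STE12*, the transcription factor of the pheromone response, had 38 reads in Δ*sir2* against 75, 116 and 105 (log2 ratio -1.57, 95% counting interval -2.10 to -1.08). *RDH54*, a recombination gene, had 30 against 97, 98 and 124, and *SST2*, which switches the G protein off, had 37 against 205, 278 and 257. *AXL1*, which directs the axial budding of haploids and cleaves the **a**-factor precursor, had 11 against 114, 145 and 191. Each of these was called by edgeR as well.

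The remaining haploid-specific genes act in mating-type switching, meiosis and DNA repair. *HO*, the endonuclease of mating-type switching, had 0 reads in Δ*sir2* against 65, 55 and 35, at least 19.7-fold lower (adjusted p = 4.95e-13). Reads at the *HO* symbol say nothing of the enzyme's function, since laboratory strains carry a mutant allele. *RME1*, a repressor of meiosis, had 3 against 45, 77 and 95 (log2 ratio -4.79, -7.08 to -3.22). *NEJ1*, a factor of nonhomologous end joining, had 2 against 14, 23 and 9 (adjusted p = 0.00241) and was the haploid-specific gene that edgeR did not call (adjusted p = 0.20). No other listed gene of nonhomologous end joining was called.

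**Figure D2:**
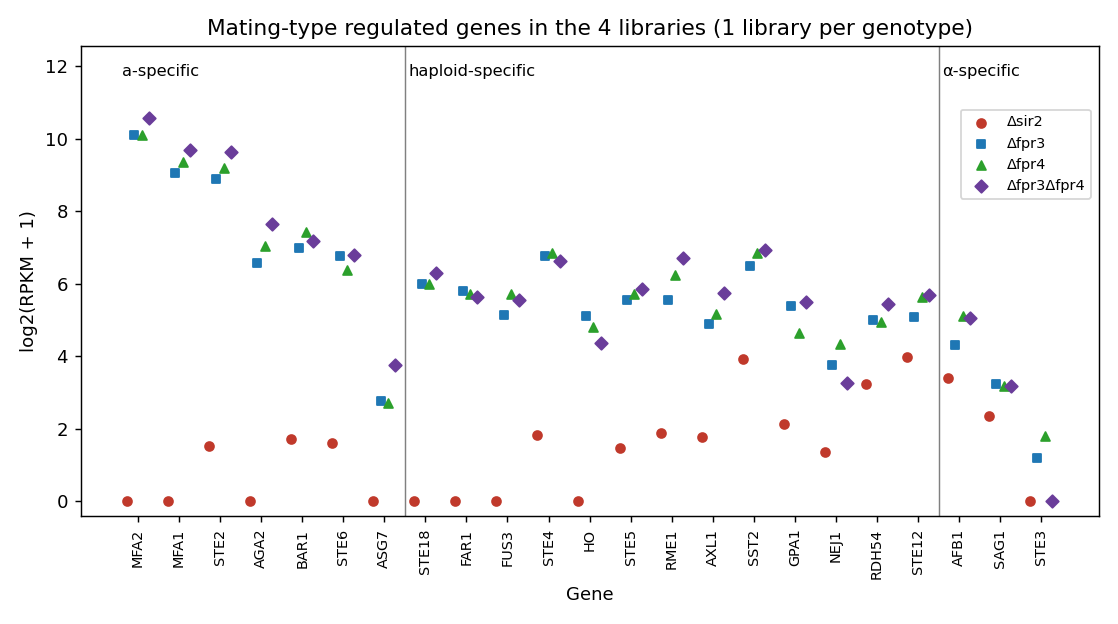
Levels as log2(RPKM + 1) of the **a**-specific, haploid-specific and tested α-specific genes (x axis), 1 point per library, ordered within each list by the gap. For all 20 **a**-specific and haploid-specific genes the Δ*sir2* point lies below the other 3, and for the α-specific gene *STE3* it lies at 0 together with the double mutant.

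The α-specific genes had few reads in all 4 libraries. *MF(ALPHA)1* had 0 reads in every library. *STE3*, the **a**-factor receptor gene, had 0 reads in Δ*sir2* against 2, 4 and 0. A count of 0 in Δ*sir2* allows up to 3 reads, or 0.000241% of that library. *SAG1*, α-agglutinin, had 10 reads against 18, 18 and 16 and was not called (adjusted p = 0.137). *AFB1*, the **a**-factor barrier, had 8 against 14, 26 and 22 and was called lower (adjusted p = 0.0149), though not by edgeR.

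At the mating-type loci themselves, the counts could show little. *HMRA1* had 40 reads in Δ*sir2* and 33, 30 and 38 in the *fpr* libraries, and its level lay within their range (difference 0.06). It has the same sequence as the **a**1 gene at *MAT*, which *MAT***a** cells express. *HMLALPHA1* had 1 read in Δ*sir2* and 0 elsewhere. *MATALPHA2* had 2, 2, 4 and 4 reads, *MATALPHA1* had 1 read in Δ*fpr4* only, and *HMLALPHA2* and *HMRA2* had 0 reads in all 4. Reads that align to more than 1 place were removed by the authors, so reads from identical genes at *HML* and *MAT* could not be counted. Of 8 genes within 10 kb of *HML*, 4 were tested, 3 lay above the range and 1 was called higher: *CHA1*, the serine and threonine deaminase gene, with 380 reads against 247, 243 and 208 (log2 ratio 0.51, 95% counting interval 0.33 to 0.69, adjusted p = 4.61e-07; not called by edgeR, adjusted p = 0.29). Of 6 genes within 10 kb of *HMR*, 5 were tested, 3 lay above the range and 0 were called. Among all genes, 25.2% lay above the range and 5.50% were called higher.

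Targets of the pheromone response fell in part. Of 37 tested genes of the response, none of them on the haploid-specific list and *ASG7* among them, 10 were called lower and 0 higher, against 9.30% and 5.50% of all genes, with a median difference of -0.30, and 2 of the 10 were called by edgeR. *AGA1*, the anchor subunit of **a**-agglutinin, had 18 reads in Δ*sir2* against 99, 189 and 167 (log2 ratio -3.27, 95% counting interval -4.04 to -2.59, adjusted p = 4.01e-29). *GIC2*, an effector of Cdc42, had 49 against 104, 156 and 164, and these were the ones edgeR called too. *FUS1*, a cell fusion gene, had 4 reads against 10, 26 and 28. *KAR4*, a nuclear fusion factor, had 11 against 33, 29 and 38, and *PRM1*, a membrane protein of cell fusion, had 0 against 6, 22 and 16. The letters TGAAACA, the element bound by Ste12, were present in the same promoter window of 18 of 41 genes of this list (43.9%), 5 of 7 **a**-specific genes (71.4%) and 370 of 5041 genes in all (7.34%).

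Bud site genes were called lower in 5 of 14 cases and higher in 0, against 9.30% and 5.50% of all genes, with a median difference of -0.15. Besides *AXL1*, these were *AXL2*, the landmark protein of axial budding, with 43 reads against 105, 125 and 111 (log2 ratio -1.60, 95% counting interval -2.09 to -1.14), *AMN1*, which acts in daughter cell separation and exit from mitosis, with 221 against 362, 520 and 495, *BUD6* and *RAX2*. edgeR called the first 3. *AMN1* and *FAR1* also belong to the cyclin and G1 list. Of its 36 genes, 4 were called higher (11.1%) and 6 lower (16.7%), against 5.50% and 9.30% of all genes. The G1 cyclin gene *CLN2* was called lower with 85 reads against 147, 145 and 120, and its paralog *CLN1* was called higher with 106 against 72, 57 and 53, without an edgeR call for either.

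Meiosis genes, which diploid cells use, were looked at next. *IME4*, an mRNA methyltransferase gene of meiosis, had 17 reads in Δ*sir2* and 2, 0 and 4 in the *fpr* libraries, a log2 ratio of 2.89 (95% counting interval 1.48 to 4.52, adjusted p = 1.10e-05; edgeR adjusted p = 0.23). In a haploid, an antisense transcript crosses *IME4*. It starts past the stop codon, where **a**1-α2 binds in a diploid, and the methods state that reads on the proper strand were counted, while the labels do not say that the cDNA kit keeps the strand. The letters TACATCA, the core of the **a**1-α2 site, were found in the 600 bases past the *IME4* stop codon, 169 bases from it (chrVII:144187-144253, in the direction of the gene, match in capitals). This window was chosen after the value of *IME4* was seen. The share of all genes with a match in such a window was not computed, so how common a match is there was not tested.
IME4: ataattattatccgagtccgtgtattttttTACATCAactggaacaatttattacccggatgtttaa

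The same 7 letters were in the promoter window, a shorter stretch, of 1 of the 13 haploid-specific genes (7.69%) and of 5.22% of all genes. Of 62 meiosis and sporulation genes, 41 had enough reads to be tested, and 4 were called higher and 1 lower, against 5.50% and 9.30% of all genes. The 4 were *IME4*, *MSH4* of meiotic crossing over (12 reads against 3, 2 and 0), *SPO21* of the spore membrane (8 against 2, 1 and 0) and *GAS2* of the spore wall (22 against 7, 4 and 10). *REC107*, needed for meiotic breaks, was lower with 2 reads against 11, 12 and 10. None of the 5 was called by edgeR, and the median difference of the list was 0.05, changing sign between alternatives. *NDJ1*, a meiotic telomere protein gene singled out after its values were seen, had 0 reads against 29, 35 and 38 and was at least 13.0-fold lower, with an edgeR call.

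Among genes higher in Δ*sir2*, the largest gaps were at chromosome ends. *COS12* (YGL263W, chrVII:2790-3932), a member of the subtelomeric COS family of membrane protein genes, had 73 reads in Δ*sir2* and 4 in each *fpr* library (log2 ratio 3.99, 95% counting interval 3.10 to 5.01, adjusted p = 3.36e-31). *COS4* had 15 reads in Δ*sir2* and 0 in the other 3, at least 13.1-fold higher against a floor of 3 reads over the 3 libraries (adjusted p = 9.57e-09). It was the only called gene without a read in any *fpr* library. *COS8* had 152 reads against 26, 76 and 21, and *COS1* had 94 against 19, 46 and 16. In both, Δ*fpr4* was the nearest to Δ*sir2*. edgeR called *COS12*, *COS4* and *COS8*, and *COS1* had an adjusted p of 0.051 there.

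Genes with a COS name were grouped after these values were seen. The group includes *COS111*, which does not lie within 20 kb of a chromosome end and entered by its name only. Of the 12 genes in the files, all tested, 5 were called higher and 0 lower, against 5.50% and 9.30% of all genes. *COS111* was not among the 5. The fifth was *COS7*, with 59 reads against 20, 39 and 40. The other 7 were not called. *COS6* had 236 against 162, 219 and 136, *COS9* had 36 against 54, 48 and 44, and *COS10* had 23 against 21, 19 and 21. *COS2* and *COS3* had at most 5 reads in any library. The median difference of the group, *COS111* included, was 0.50. The subtelomeric COS genes are close copies of each other, and because reads with more than 1 place were removed, the split of reads among them is uncertain.

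Of the other high genes, *IMD2* and *YPS5* also lay within 20 kb of an end. *HPF1* stood between 20 and 40 kb from one, where 3.29% of genes were called higher, against 5.50% of all genes. *HPF1* (YOL155C, chrXV:28703-31606), a cell wall mannoprotein gene that reduces protein haze in wine, had 681 reads in Δ*sir2* and 139, 76 and 68 in the others (log2 ratio 2.66, 95% counting interval 2.45 to 2.86, adjusted p = 1.90e-192), and *IMD2* (YHR216W), the inosine monophosphate dehydrogenase gene of guanine nucleotide synthesis, had 327 against 82, 96 and 60 (log2 ratio 1.85, 1.60 to 2.09, adjusted p = 1.03e-55). edgeR called both. *IMD2* has close copies whose reads it may share. *YPS5*, a gene related to the yapsin proteases, had 10 against 4, 2 and 0. Besides *IME4*, *MSH4* and *SPO21*, the rest of the 10 largest gaps were low genes: *DAL3* of allantoin use (5 reads against 1, 0 and 1), *BNS1*, related to a mitotic exit gene (19 against 7, 7 and 3), and *MCM16* of the kinetochore (23 against 7, 9 and 7), none with an edgeR call.

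Genes near an end were called in both directions. Within 20 kb of the ends lay 160 genes, 95 of them tested. Of these, 9 were called higher (9.47%, against 5.50% of all genes) and 10 lower (10.5%, near the 9.30% of all genes), and the median difference was -0.06. Without the COS genes, 4 of 84 were called higher and 10 lower, with a median of -0.13. By distance, with the COS genes included, the median was 0.18 for 31 genes within 10 kb. It was -0.16 for 64 genes between 10 and 20 kb and -0.12 for 213 genes between 20 and 40 kb. In these bands 7, 2 and 7 genes were called higher (22.6%, 3.1% and 3.3%, against 5.50% of all genes). Called lower were 4, 6 and 32 (12.9%, 9.4% and 15.0%, against 9.30%). The 7 higher genes within 10 kb included *COS12*, *COS4*, *COS8* and *COS1*. The lower genes close to an end included *GEX2*, a glutathione exchanger gene with 0 reads against 6, 8 and 8, *MAL11*, a maltose and α-glucoside transporter gene with 6 against 22, 20 and 30, and *HXK1*. edgeR called 4 of the chromosome end genes higher (*COS12*, *COS4*, *COS8* and *IMD2*) and *HXK1* lower.

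**Figure D3:**
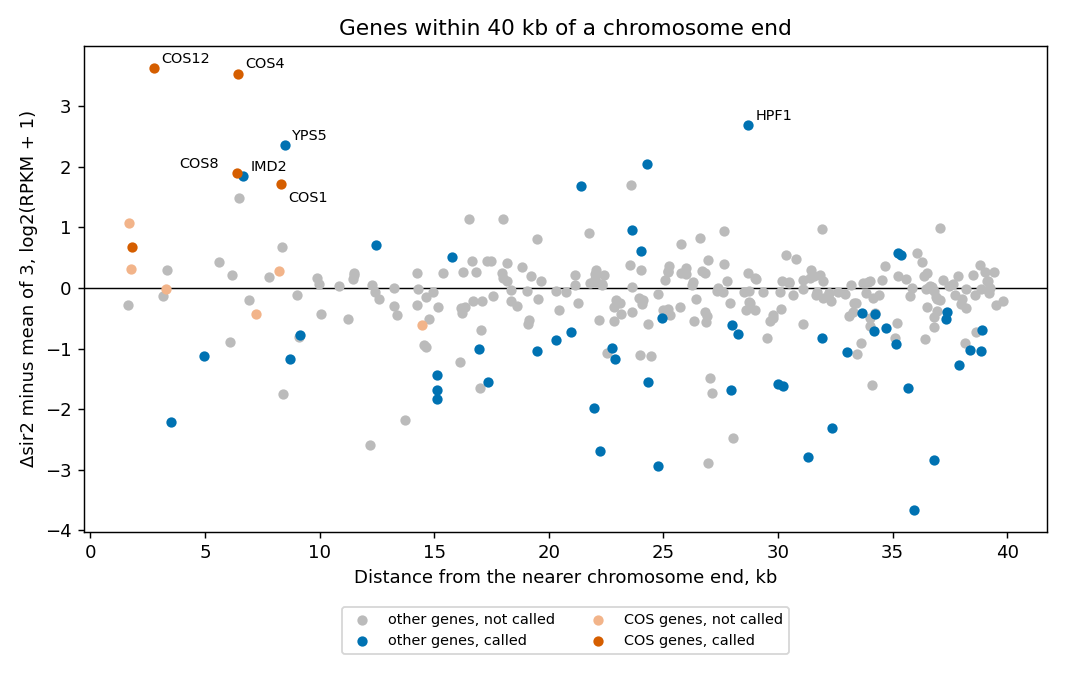
Difference of Δ*sir2* from the mean of the 3 *fpr* libraries, in log2(RPKM + 1), against the distance in kb from the nearer chromosome end, 1 point per tested gene within 40 kb. The named high genes stand within 10 kb of an end except *HPF1*, and called genes lie on both sides of 0 in each 10 kb shown.

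Few of the genes that encode silencing proteins were called, and the levels of the proteins were not measured. Of the 29 tested, 7 lay above the *fpr* range and 9 below it (24.1% and 31.0%), near the 25.2% and 29.1% of all genes. Of 29 silencing genes, with *SIR2* left out, 2 were called higher (*RAP1*, which recruits the Sir proteins, with 286 reads against 165, 198 and 173, and *MSI1* of chromatin assembly factor 1) and 2 lower (the sirtuin genes *HST2*, with 86 against 120, 122 and 98, and *HST3*, with 21 against 33, 46 and 38). Each direction held 6.90% of the list, near the 5.50% and 9.30% of all genes, and none was called by edgeR. Of 23 genes that act in silencing and upkeep of the rDNA, 1 was called higher and 1 lower, 4.35% each, below the shares of all genes. *NET1*, whose product tethers Sir2 in the nucleolus, was the higher gene (494 reads against 317, 365 and 300) and the condensin gene *SMC4* the lower. Of 26 genes of NAD synthesis and use, 3 were called lower (11.5%, near the 9.30% of all genes) and 0 higher: *BNA1* and *TNA1* of the synthesis and uptake of NAD precursors and *PNC1*, the nicotinamidase that relieves inhibition of Sir2, with 185 reads against 228, 288 and 211 (log2 ratio -0.59, 95% counting interval -0.83 to -0.35; edgeR adjusted p = 0.34). *NAT1*, which lies 428 bases from *SIR2*, was called higher with 433 reads against 277, 291 and 274.

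General stress genes were the largest group of lower genes outside the mating lists. These genes make trehalose, glycogen and protective proteins and rise when growth slows. Of 48 tested, 36 were below the *fpr* range and 26 (54.2%) were called lower, against 9.30% of all genes, and 0 were called higher; the median difference was -0.90. They were called lower 15, 29 and 26 times against the single libraries, where 8.27%, 10.7% and 9.81% of all genes were. Within the *fpr* libraries the level was lowest in Δ*fpr3*: the list took 0.260% of reads in Δ*sir2* against 0.341%, 0.485% and 0.434%. edgeR called 6 of the 26 lower and DESeq2 4.

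*YGP1*, a secreted glycoprotein gene of starved cells, had 12 reads in Δ*sir2* against 82, 149 and 149 (log2 ratio -3.60, 95% counting interval -4.56 to -2.78, adjusted p = 1.12e-25; edgeR adjusted p = 6.4e-05). *DDR2*, a stress-induced gene of unknown role, had 0 against 7, 18 and 9 (adjusted p = 0.00269) and was among the 10 largest gaps, without an edgeR call. *XBP1*, a repressor of cell cycle genes in stress, had 0 against 12, 10 and 8, and *FMP16* had 0 against 3, 8 and 6. Glycogen and trehalose genes were lower at higher read numbers: *GDB1*, the debranching enzyme, had 36 against 90, 97 and 67, *GLC3*, the branching enzyme, 63 against 103, 192 and 180, *GPH1*, the phosphorylase, 67 against 105, 216 and 203, *GSY2*, the synthase, 82 against 111, 275 and 215, and *TSL1* of the trehalose synthase complex 151 against 249, 388 and 267. edgeR called each of these 5. *TPS1* and *TPS2*, which make trehalose, were lower by less (log2 ratios of -0.72 and -0.71) and were not called by edgeR.

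Some genes of sugar uptake and glycolysis were lower. The list of hexose and sugar transporter genes also held sensors and regulators of sugar uptake, such as *SNF3*, *RGT2* and *MIG1*. Of its 20 tested genes, 6 were called lower, all of them transporter genes, and 0 higher, against 9.30% and 5.50% of all genes. *HXT4*, a glucose transporter gene of intermediate affinity, had 22 reads against 125, 132 and 99 (log2 ratio -2.63, 95% counting interval -3.32 to -2.01, adjusted p = 1.40e-19; edgeR adjusted p = 7.1e-05), and *HXT2*, of high affinity, 930 against 1197, 1477 and 1582; edgeR called both. *HXT7* had 9 against 22, 42 and 43 and *HXT6* 3 against 9, 13 and 15. The last pair are near-identical, so the split between them is uncertain. Of 34 glycolysis and fermentation genes, 8 were called lower and 0 higher, 3 of them by edgeR. The kinase genes *HXK1* (104 reads against 173, 422 and 351) and *GLK1* (268 against 463, 708 and 479) and the glyceraldehyde phosphate dehydrogenase gene *TDH1* (192 against 383, 557 and 314) were those 3. *CIT2*, the citrate synthase of the glyoxylate cycle, had 92 reads against 164, 191 and 159 and was called by edgeR too.

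Cell wall genes moved in the same direction. Of 54 tested, 24 (44.4%) were called lower and 1 higher (*YPS5*), against 9.30% and 5.50% of all genes, with a median difference of -0.43. They were called lower 23, 23 and 29 times against the single libraries, where 8.27%, 10.7% and 9.81% of all genes were. The glucanase-like genes *SCW4* (673 reads against 1138, 1283 and 1481, log2 ratio -1.15, 95% counting interval -1.27 to -1.03, adjusted p = 1.20e-82) and *SCW10* (580 against 853, 1098 and 888), the chitin synthase gene *CHS1* (151 against 297, 326 and 250) and the yapsin gene *YPS1* (248 against 461, 498 and 382) were called by edgeR as well. Mannoprotein genes with many reads were lower by less: *CCW12* had 5113 reads against 6266, 6680 and 6792 (log2 ratio -0.56, 95% counting interval -0.61 to -0.52), with an edgeR adjusted p of 0.13. In all, edgeR and DESeq2 each called 7 of the 24.

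**Figure D4:**
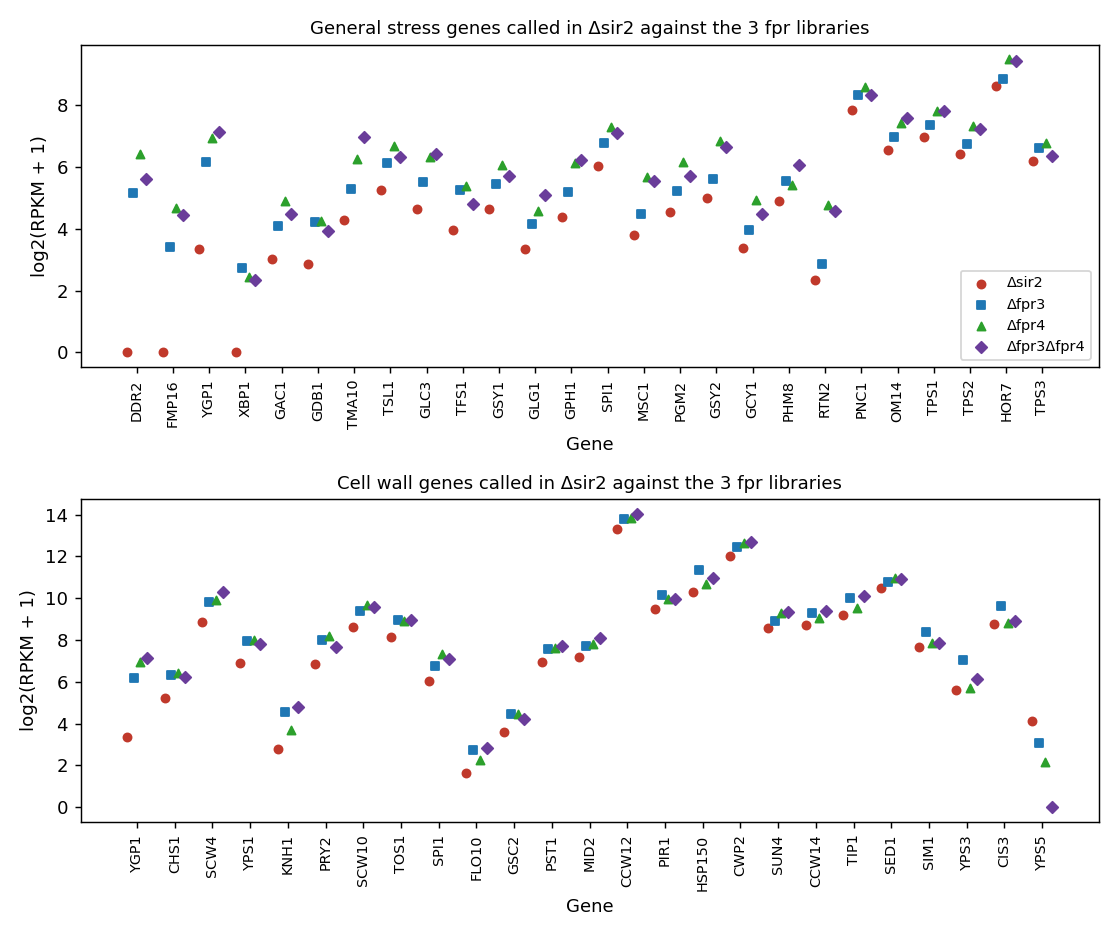
Levels as log2(RPKM + 1) of the called general stress genes (top) and cell wall genes (bottom), 1 point per library, ordered by the gap between Δ*sir2* and the nearest *fpr* library. Δ*sir2* lies lowest in every gene shown except *YPS5*, and among the general stress genes Δ*fpr3* is often the next lowest.

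Iron uptake genes were lower in part, and the count rested on the library compared. Of 34 genes of iron and copper uptake, 7 were called lower (20.6%, against 9.30% of all genes) and 0 higher. Against the single libraries, 4 were called lower for Δ*fpr3*, 13 for Δ*fpr4* and 7 for the double mutant, where 8.27%, 10.7% and 9.81% of all genes were. Without the Δ*fpr3* library 12 were called lower, and without the double mutant 10. Among them were cell wall mannoprotein genes that hold siderophores: *FIT2* had 10 reads against 31, 86 and 95 (log2 ratio -3.02, 95% counting interval -4.10 to -2.11) and *FIT3* 26 against 55, 73 and 87, both with an edgeR call. *ENB1*, the enterobactin transporter gene, had 89 against 131, 216 and 150, and *HMX1*, the heme oxygenase gene, had 1 against 18, 11 and 6.

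Phosphate genes were called in both directions. Of 35, 5 were called higher and 5 lower, 14.3% each, against 5.50% and 9.30% of all genes. *PHO84*, the high-affinity phosphate transporter gene, had 4329 reads in Δ*sir2* against 2365, 3062 and 2096 (log2 ratio 0.59, 95% counting interval 0.54 to 0.65, adjusted p = 6.36e-101; edgeR adjusted p = 0.080). *VTC3* and *VTC2* of the polyphosphate polymerase, *SPL2*, a regulator of phosphate transport, and *PHO5*, a secreted acid phosphatase gene, were the other higher genes. *PHO3*, an acid phosphatase gene that answers to thiamine, had 239 reads against 372, 363 and 397 and was the only one of the 10 that edgeR called. *PIC2*, *PHM8*, *PPX1* and *PHO12* were the other lower genes.

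Ribosomal protein genes were slightly and broadly higher. Of 138, 107 (77.5%) lay above the *fpr* range, where 25.2% of all genes lay, and 25 were called higher and 0 lower, against 5.50% and 9.30% of all genes, with a median difference of 0.25. They took 16.3% of reads in Δ*sir2* against 14.2%, 13.9% and 13.9%. The medians against the single libraries were 0.22, 0.27 and 0.22. *RPS24A* had 1134 reads against 686, 768 and 641 (log2 difference 0.50, adjusted p = 1.25e-19) and *RPL8A* 1335 against 884, 945 and 563. These differences were small against the 1.3-fold threshold, at which *RPL11A* (difference 0.379) was just inside and *RRP5*, a ribosome synthesis gene (0.377), just outside, and 0 of the 25 were called by edgeR.

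Ribosome biogenesis genes were higher against Δ*fpr4* above all. Of 132, 23 were called higher and 2 lower, against 5.50% and 9.30% of all genes, with a median difference of 0.18. The calls were 9 higher against Δ*fpr3*, 48 against Δ*fpr4* and 14 against the double mutant, where 4.31%, 7.22% and 5.65% of all genes were called higher. Without the Δ*fpr4* library the number called higher was 12. *RCL1*, an endonuclease gene of 18S rRNA maturation, had 142 reads against 55, 56 and 65 (log2 ratio 1.08, 95% counting interval 0.75 to 1.41, adjusted p = 3.37e-10) and was the only one that edgeR called.

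**Figure D5:**
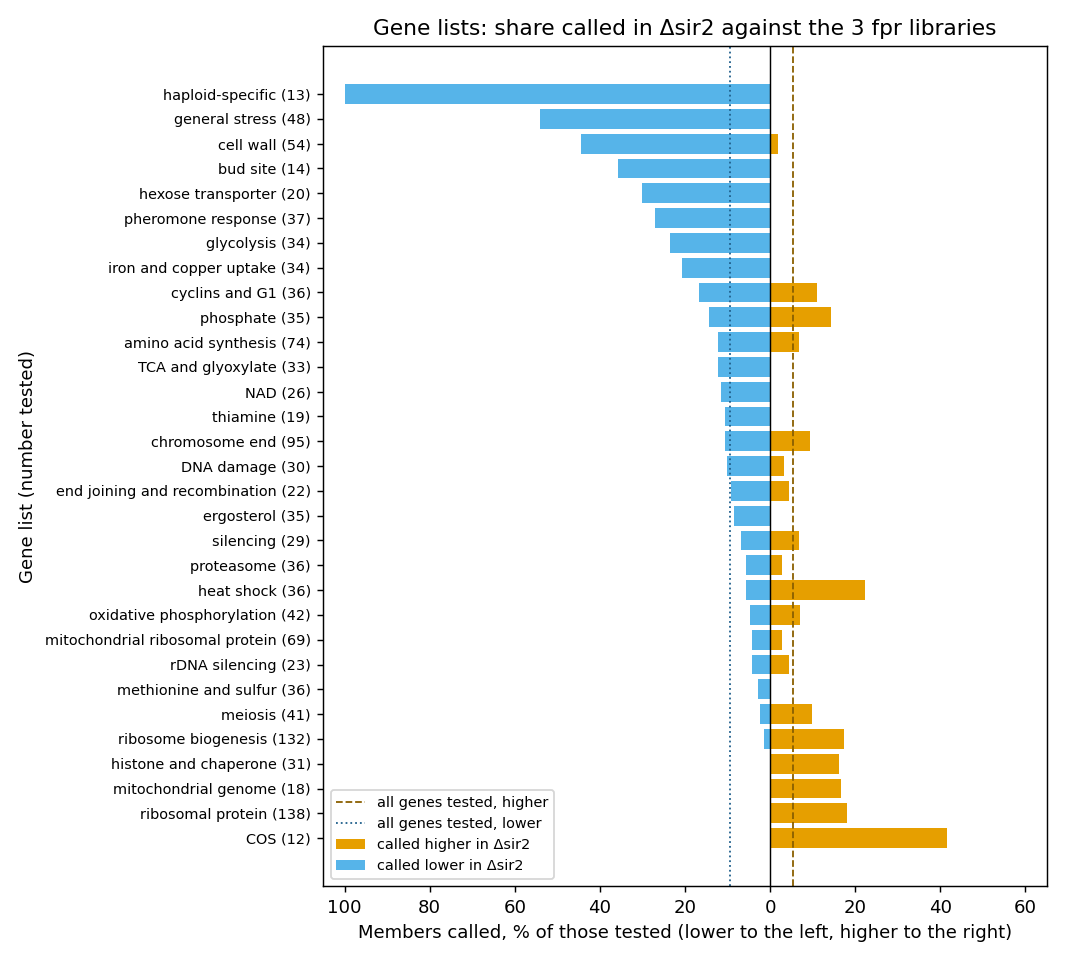
Share of each gene list's tested members, in percent, that were called lower (bars to the left) or higher (bars to the right) in Δ*sir2*, for lists with at least 10 tested genes; the vertical lines mark the 9.30% and 5.50% of all genes. The haploid-specific, general stress and cell wall lists reach furthest to the left, and the COS genes, grouped after their values were seen, furthest to the right.

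Chaperone genes of the heat shock list were called in both directions. Of 36, 8 were called higher and 2 lower, against 5.50% and 9.30% of all genes. The higher ones included the Hsp90 gene *HSC82*, with 7118 reads against 4722, 4862 and 4336, its cochaperone gene *STI1*, with 769 against 499, 503 and 405, and the Hsp40 genes *YDJ1*, with 786 against 501, 472 and 478, and *SIS1*, with 289 against 175, 153 and 122. The lower ones were *HSP42*, a small heat shock protein gene (46 against 88, 94 and 81), and *SSE2*, an Hsp110 gene (52 against 79, 79 and 69). edgeR called none of the 10. Histone and chaperone genes, with the deleted genes left out, were called higher 5 times of 31 and lower 0 times, 2 times without the double mutant library, among them the H4 gene *HHF2* with 552 reads against 357, 411 and 314.

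Genes of the mitochondrial genome showed a difference that 1 *fpr* library did not share. Of 18, 3 were called higher, against 5.50% of all genes. They took 4.73% of reads in Δ*sir2* against 3.66%, 3.62% and 4.53%, and their median difference was 0.37 against Δ*fpr3* and 0.21 against Δ*fpr4* but -0.07 against the double mutant. Without the double mutant 8 were called higher, and without Δ*fpr3* or Δ*fpr4* 1. The nuclear chromosomes had median differences between -0.06 and 0.02.

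Of the lists counted next, between 0% and 7.14% of members were called higher, against 5.50% of all genes. Between 2.78% and 12.2% were called lower, against 9.30% of all genes. Of 69 mitochondrial ribosomal protein genes, 2 were called higher and 3 lower, of 42 oxidative phosphorylation genes 3 and 2, and of 36 proteasome genes 1 and 2. Of 35 genes of the ergosterol list 0 were called higher and 3 lower, which were *ERG7* and the mannoprotein genes *DAN4* and *TIR1*. Of 74 amino acid synthesis genes, 5 were called higher, led by *HIS7* (129 reads against 77, 61 and 52), and 9 lower, among them *ARG1* (12 against 18, 32 and 65) and *SHM2* (1086 against 1812, 1387 and 1660), the latter by edgeR too. Of 36 methionine and sulfur genes, 1 was called lower, and of 19 thiamine genes 2 were. Of 30 DNA damage genes, 1 was higher and 3 lower, and of these *RAD17*, a checkpoint clamp gene, had 0 reads against 14, 17 and 8 (adjusted p = 0.00110; edgeR adjusted p = 0.065).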

How the data were processed

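The paper's methods state that ribosomal RNA was depleted, that paired ends were aligned to sacCer3 with BWA, and that poorly mapped, duplicated and improperly paired reads were removed before counting on the proper strand. The authors deposited 2 values for each of 5110 genes: a read count, not normalized, and an RPKM, in a column named for another unit. The RPKM was recomputed from the counts and agreed to within 0.0980% for genes above 20 reads. The authors' duplicate removal can cap the counts of short, highly expressed genes. Of the genes, 5041 matched the R64 annotation by systematic name and 5034 had the same coordinates. The wild-type and both *trf5* libraries were not used.

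The 4 libraries were analysed with Python 3.11.15 (pandas 2.3.3, scipy 1.17.1), R 4.3.3, edgeR 4.0.16 and DESeq2 1.42.0. Levels were log2(RPKM + 1), with a pseudocount of 1. The chi-square test had 1 degree of freedom and no continuity correction. Intervals are 95% exact intervals of the ratio of the reads and cover counting error only. Bounds use a floor of 3 reads. In edgeR and DESeq2 the 3 *fpr* genotypes stood as 1 group. List counts leave out the 3 deleted genes. The tests were also run on simulated counts that held counting error only, with no difference among the 3 *fpr* libraries. That setting cannot show how the tests behave under the spread seen among the real *fpr* libraries.

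Named genes were the deleted genes, all members of the mating lists, the 10 called genes with the largest gap in each direction, up to 4 called members per list and direction, and the genes next to the fold threshold. The COS genes and further called list members were chosen after seeing their values. The gene lists and the members of the comparison were chosen with earlier results of these data known. Alternatives covered the pseudocount, read filters, folds, tests, scalings and leaving out each *fpr* library.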

Additional observations from a re-analysis of the deposited data

How the results depend on the processing

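No paired analysis was possible because each genotype has 1 library. The counts of 267 genes called higher and 451 called lower changed most with the test. edgeR gave 6 and 60 and DESeq2 3 and 48 (259 at an unadjusted p under 0.05, and 95 genes without an adjusted p). A chi-square test against each of the 3 libraries gave 45 and 160, and no test 560 and 869. A fold of 1.5 gave 128 higher, and a fold of 2 gave 40 higher and 171 lower. Leaving out 1 *fpr* library gave 239 to 326 higher and 431 to 521 lower, with 1533 to 1614 genes above and 1763 to 1819 below the range of the 2 that remained. The range of 2 libraries is narrower by construction. TMM factors, DESeq2 size factors and a shift to a median of 0 gave 286 and 419, 318 and 407, and 284 and 421. Alternatives were followed for 158 of the named genes. Of these, 110 lost their call under DESeq2, 103 under edgeR and 67 under a fold of 2. The chi-square test against each library also removed 67 calls. No called gene among the 158 changed direction. A call asks for Δ*sir2* outside the range and a difference of at least 1.3-fold, so this outcome was largely fixed in advance. Some called genes named above, such as *NDJ1* and *SRD1*, were not followed. The list medians of the amino acid, meiosis, methionine, silencing, silent mating-type and thiamine genes changed sign in at least 1 alternative.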

Other observations

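Of all genes called lower, 23 had no read in Δ*sir2*, with *SIR2* itself and members of the lists among them. Those named next lie outside the lists and were singled out after their values were seen. *SRD1*, named for a role in pre-rRNA processing, had 0 reads in Δ*sir2* against 19, 12 and 21 in the *fpr* libraries, at least 6.62-fold lower, and was called by edgeR (adjusted p = 0.023). *JEN1*, the lactate and pyruvate transporter gene, had 0 against 10, 21 and 6 (at least 4.71-fold lower). *TPC1*, a mitochondrial thiamine pyrophosphate carrier gene, had 0 against 16, 10 and 13 (at least 4.97-fold lower). *MCM22*, a kinetochore gene, had 0 against 12, 8 and 7 (at least 3.44-fold lower), while *MCM16* of the same complex was higher in Δ*sir2*, with 23 reads against 7, 9 and 7.

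Other genes called lower by edgeR and outside the lists were *VBA2*, a vacuolar transporter gene of basic amino acids (4 reads against 25, 55 and 36), *TOK1*, the outward potassium channel gene (25 against 69, 73 and 86), *INN1* of cytokinesis (14 against 42, 56 and 42), *UTH1*, a cell wall and mitochondrial SUN family gene (533 against 1172, 994 and 978, log2 ratio -1.17, 95% counting interval -1.31 to -1.04), and *MSB2*, a mucin of the osmosensing and filamentous pathways (237 against 532, 494 and 379).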
